A study of Mus musculus with 8 samples.

Results

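The response to stress in the endoplasmic reticulum (ER) was followed in white adipocytes through 10 genes: Hspa5, Hsp90b1, Ddit3, Atf4, Atf6, Xbp1, Ern1, Trib3, Herpud1 and Dnajb9. They were chosen by name, as the 10 of the 30387 genes of the deposited table that carry these symbols, and all 10 passed the filter on low values. The 10 genes and the gene lists below were chosen with earlier results of these data known. Their counts beside the shares of all genes are therefore descriptive. RNA was sequenced from adipocytes isolated from epididymal fat, from Ad-Yap/Taz-KO mice and their wild-type littermates (WT), 2 libraries for each genotype and diet. The Ad-Yap/Taz-KO mice carry floxed alleles of both genes (Yap flox/flox;Taz flox/flox) and Adipoq-Cre, a Cre recombinase under the promoter of adiponectin, which is active in adipocytes. Both genotypes received standard diet (SD, called normal chow in the labels) or high-fat diet (HFD) for 4 weeks. The diets began at week 5 of age in the description of the series and at week 6 in the study's methods. The labels do not say whether the libraries of a group come from separate mice, while the study describes its RNA-seq groups as separate mice. If the libraries were repeats of a single preparation, the p-values would measure technical spread alone. Isolated adipocytes can carry other cells of the fat pad along, and bulk RNA cannot tell fewer cells of a type from less RNA per cell.

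The ER folds secreted and membrane proteins, and adipocytes secrete large amounts of adiponectin, leptin and other proteins. When unfolded proteins build up, 3 sensors in the ER membrane start the unfolded protein response. IRE1, encoded by Ern1, cuts the Xbp1 messenger RNA so that it can be spliced into the message for an active transcription factor. PERK, encoded by Eif2ak3, phosphorylates the translation factor eIF2alpha, which slows protein synthesis but favours translation of Atf4 and, downstream of it, expression of Ddit3 (CHOP) and Trib3. ATF6 travels to the Golgi, is cut there, and enters the nucleus to switch on chaperones. Splicing of Xbp1, cleavage of ATF6 and translation of Atf4 are not seen in counts per gene, so the values here describe messenger RNA levels only.

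Several of these genes are textbook targets of the response through short promoter elements. The genes were named as members of this response, so finding the elements in them is no independent result. The shares over all promoters only describe how rare each element is. Promoter sequences from RefSeq (assembly GRCm38.p6, 250 bases before to 50 after the transcription start) were found for 9 of the 10 genes, all except Atf6. They were searched on both strands for the ER stress response element ERSE (CCAATN9CCACG), ERSE-II (ATTGG and CCACG with 1 base between them), the UPRE core (TGACGTGG), the CARE element bound by ATF4 (TGATGNAA), the TEAD motif (GGAATG), TEAD factors being the DNA-binding partners of YAP and TAZ, and the CCAAT box. ERSE contains a CCAAT box, and ERSE-II contains the same box on the opposite strand. An ERSE was present in Hspa5, from -65 to -47 relative to the start, and in Hsp90b1, from -212 to -194 and, on the opposite strand, from -107 to -89. It occurs in 39 of 32851 promoters of this length (0.119%). ERSE-II was present in Herpud1 (-52 to -42) and in 12 of all promoters (0.0365%). CARE was present in Herpud1 (-112 to -105) and Trib3 (15 to 22) and in 3.97% of all promoters. The TEAD motif was present in Ern1 (-31 to -26) and in 14.7% of all promoters. The UPRE core was in none of the 9 windows and in 0.676% of all promoters, and a CCAAT box was in 6 of 9 and in 37.4% of all. The stretches that hold the elements are given 5′ to 3′ on the strand of the gene, with ERSE, ERSE-II, CARE or, in Ern1, the TEAD motif in capitals, at chr2:34772020-34772049 (+), chr8:94386179-94386428 (+), chr10:86705510-86705694 (-), chr2:152344028-152344057 (-) and chr11:106487810-106487839 (-). For Hspa5, Trib3 and Ern1 only the surroundings of the element are shown.
Hspa5: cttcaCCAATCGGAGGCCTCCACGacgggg
Herpud1: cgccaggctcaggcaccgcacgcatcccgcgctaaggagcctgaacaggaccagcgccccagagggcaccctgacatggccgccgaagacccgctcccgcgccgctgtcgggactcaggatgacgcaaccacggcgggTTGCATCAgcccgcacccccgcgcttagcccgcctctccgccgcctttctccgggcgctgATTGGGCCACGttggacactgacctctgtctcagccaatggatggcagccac
Hsp90b1: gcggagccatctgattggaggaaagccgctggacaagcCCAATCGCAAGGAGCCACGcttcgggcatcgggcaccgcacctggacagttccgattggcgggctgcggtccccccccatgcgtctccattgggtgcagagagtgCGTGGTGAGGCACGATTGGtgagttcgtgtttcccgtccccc
Trib3: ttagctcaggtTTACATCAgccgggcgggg
Ern1: cttatagggctgGGAATGggggtgtcgccg

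The deposited values are exon reads per gene divided by a size factor per library, called normalized counts here. They sum to between 14890264 and 20994246 per library, and the spacing of low values puts the reads counted on genes at 14.0 to 22.3 M. Differences were tested with limma on log2(normalized count + 1) over 18800 genes, in 1 fit of the 4 groups. A call needed both an adjusted p (Benjamini-Hochberg) of 0.05 or less and a log2 fold change of 0.59 or more, up or down. With 2 libraries against 2, an exact two-sided permutation test of 1 gene cannot give a p below 0.333, so all adjusted p-values are those of limma. The 4 groups serve in several contrasts at once, and contrasts that share a group are not independent. The targeted genes had lower normalized counts in the knockout libraries on both diets. Wwtr1, which encodes TAZ, fell on SD by 1.24 (adjusted p = 0.00097) and on HFD by 1.56 (adjusted p = 3.1e-05) on the log2 scale. Yap1 fell on SD by 0.71 (adjusted p = 0.024), a call lost with WT HFD as a single sample (adjusted p = 0.075) and without any 1 of the 4 libraries (adjusted p from 0.07 to 0.17). On HFD its log2 fold change was -0.42 (adjusted p = 0.059), and it was called without the second knockout HFD library (-0.63, adjusted p = 0.012), while with libraries scaled to the same total it was -0.04 (adjusted p = 0.9).

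The libraries of WT mice on HFD stood apart. Their squared difference was 6.19 times the Poisson expectation in genes with 1000 to 5000 reads, against 35.3 to 92.3 times in the other 3 groups, while in genes with 5 to 20 reads the 4 groups lay between 4.68 and 6.47 times. The calls of the 10 genes and the counts of the pathway lists that involve WT mice on HFD are therefore also given with these libraries averaged to 1 sample, while counts of cell markers are given with all libraries. Such an average, or a group with 1 library left out, has no spread of its own, and limma then takes the spread from the other 3 groups and assumes that the lone sample varies like them. Markers of other cells moved with the groups. The 10 macrophage markers summed to 4782 to 4785 normalized counts in WT and 15789 to 28584 in knockout libraries on SD, and to 2215 to 2330 and 28048 to 29811 on HFD. The 10 adipocyte markers summed to 290957 to 298274 and 251376 to 351299 on SD, and to 517012 to 525655 and 147085 to 280532 on HFD. The 7 markers of fibroblasts and progenitors summed to 28206 to 34273 and 31671 to 49658 on SD and to 21210 to 21567 and 67602 to 75556 on HFD. The 7 endothelial markers summed to 23019 to 28264 in WT and 11997 to 21630 in knockout libraries on SD, and to 14457 to 14851 and 18878 to 29177 on HFD. A set of 11 immediate-early genes, which respond to tissue dissociation, summed to 181144 to 206596 and 91615 to 91994 on SD, and to 107228 to 107912 and 88889 to 95929 on HFD. None of these marker lists had a gene at 0 in every library, and the part of these differences in the results below was not tested.

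Levels can be compared between genes only per length of exon. The length used was that of all annotated exons of a gene joined, not that of the transcripts present. Close ranks depend on this length, and the overlap of libraries does not measure its error. In normalized counts per kb, Hspa5, which encodes the chaperone BiP, was the most abundant of the 10 in every group, with a mean of 8759 in WT mice on SD, 5858 in knockout mice on SD, 6513 in WT mice on HFD and 8412 in knockout mice on HFD. Trib3, which encodes a pseudokinase, was the least abundant, with means of 37.6, 25.6, 28.5 and 20.7 in the same order. In WT mice on SD the order below Hspa5 was Hsp90b1 (1998), Atf4 (1887), Ddit3 (1485), Xbp1 (1122), Dnajb9 (681), Herpud1 (580), Ern1 (149) and Atf6 (148), and only Ern1 and Atf6 overlapped as neighbours. In knockout mice on SD the order after Hspa5 was Atf4 (1729), Hsp90b1 (1602), Xbp1 (904), Dnajb9 (750), Ddit3 (599), Herpud1 (375), Ern1 (209) and Atf6 (191). There the libraries of Dnajb9 and Ddit3 overlapped, as did those of Ern1 and Atf6. In WT mice on HFD the order was Hsp90b1 (1862), Atf4 (1406), Xbp1 (851), Ddit3 (802), Dnajb9 (466), Herpud1 (435), Atf6 (194) and Ern1 (96.9), with no overlap between neighbours. In knockout mice on HFD it was Atf4 (2013), Hsp90b1 (1773), Dnajb9 (848), Xbp1 (670), Herpud1 (563), Ddit3 (484), Ern1 (253) and Atf6 (188), where Herpud1 and Ddit3 overlapped. Ddit3 thus took rank 4 of the 10 in WT mice on SD and rank 7 in knockout mice on HFD, and Dnajb9 moved from rank 6 to rank 4.

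**Figure D1:**
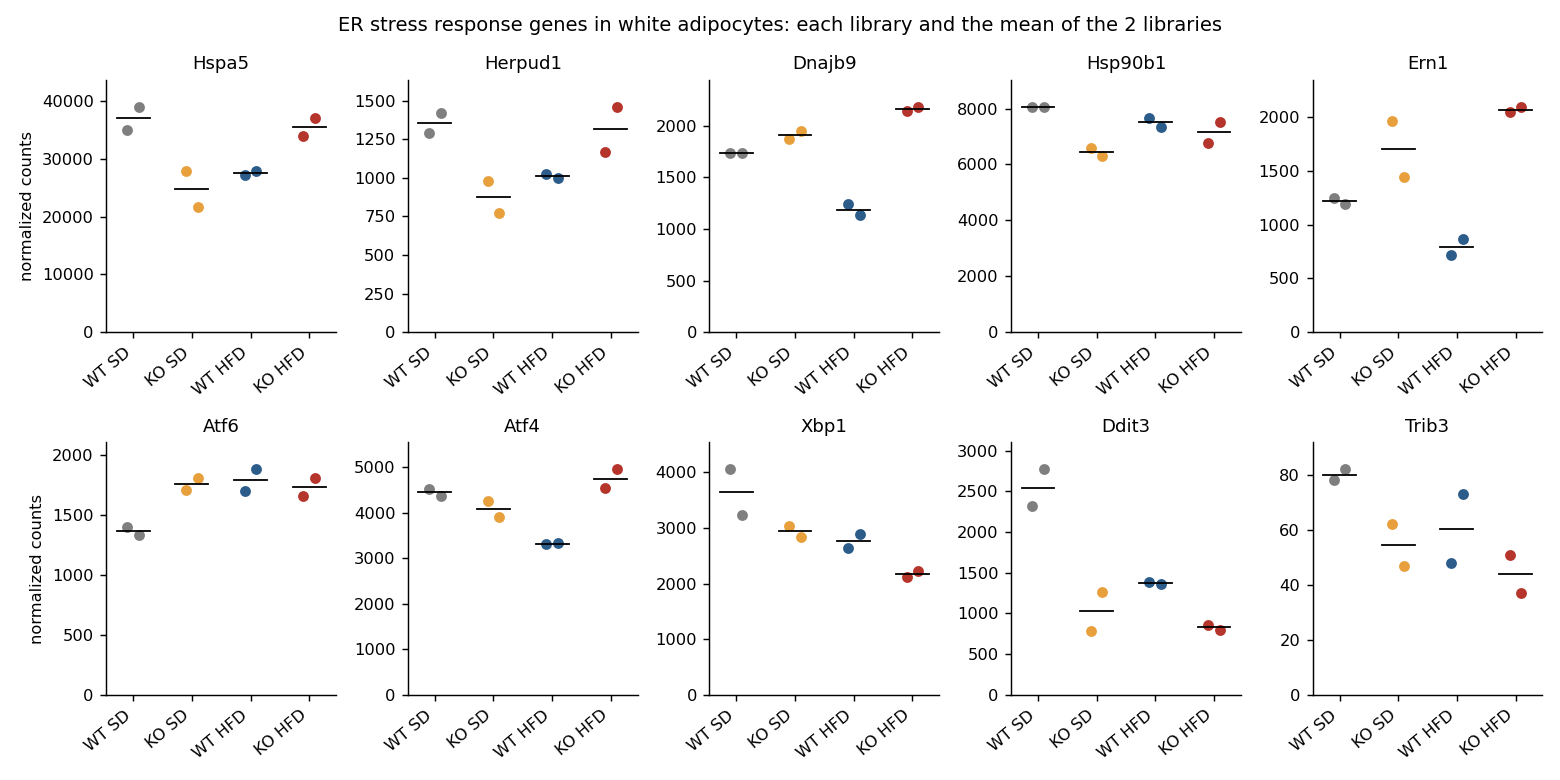
Normalized counts of the 10 genes (y axis, from 0, own scale per gene) in the 4 groups (x axis), with a point for each library and a line at the mean of the 2 libraries. Ern1 and Dnajb9 were highest in knockout mice on HFD and lowest in WT mice on HFD, and Ddit3 was highest in WT mice on SD.

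Of the sensors, Ern1 was higher in knockout than in WT libraries on HFD. Ern1 (ENSMUSG00000020715, chromosome 11, 106394650 to 106487852, GRCm38), the sensor IRE1, had 1252 and 1189 normalized counts in WT mice on SD, 1967 and 1446 in knockout mice on SD, 720 and 864 in WT mice on HFD, and 2044 and 2096 in knockout mice on HFD. Both knockout libraries lay above both WT libraries on each diet, and the WT HFD libraries were the lowest of all 8. On HFD its log2 fold change reached 1.39 (standard error 0.18, adjusted p = 8.4e-05), a 2.62-fold higher level. The call held with WT HFD as a single sample (1.38, adjusted p = 0.0028) and without any 1 library, where the value ranged from 1.26 to 1.52. On SD the difference was 0.47 (standard error 0.18, adjusted p = 0.19) and was not called. In WT mice Ern1 fell by 0.63 from SD to HFD (standard error 0.18, adjusted p = 0.027). This call was lost with WT HFD as a single sample (adjusted p = 0.16) and without any 1 of the 4 libraries (-0.76 to -0.5, adjusted p from 0.091 to 0.21).

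Ern1 was high in the libraries in which macrophage markers were high. On HFD 9 of the 10 macrophage markers were called higher in knockout libraries and on SD 8 of 10, with median log2 fold changes of 4.13 and 2.19. The medians over all tested genes were 0.09 and -0.01.

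**Figure D2:**
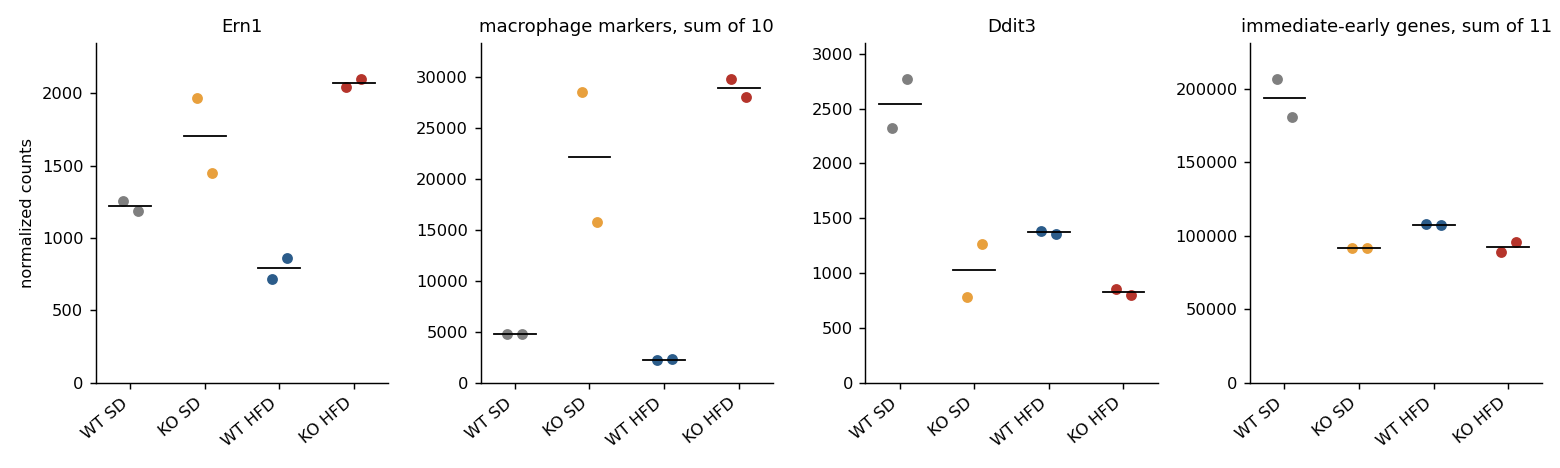
Normalized counts (y axes, from 0) of Ern1, of the summed 10 macrophage markers, of Ddit3 and of the summed 11 immediate-early genes, with a point for each of the 2 libraries of a group and a line at their mean. The means of Ern1 and of the macrophage sum were highest in knockout mice on HFD, and those of Ddit3 and the immediate-early sum in WT mice on SD. The macrophage sums of the knockout libraries overlapped between the diets.

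Atf6 (ENSMUSG00000026663, chromosome 1, 170704674 to 170867771), the sensor that is cut in the Golgi, had 1399 and 1332 normalized counts in WT mice on SD, 1710 and 1811 in knockout mice on SD, 1695 and 1878 in WT mice on HFD, and 1659 and 1809 in knockout mice on HFD. The WT SD libraries were the lowest, and the other 3 groups overlapped. No contrast of Atf6 was called. Its log2 differences were 0.37 for the knockout on SD (adjusted p = 0.22) and 0.39 for HFD in WT mice (adjusted p = 0.081), the latter being -0.03 with scaling to equal totals. On HFD the genotypes differed by -0.04 (adjusted p = 0.85), which became 0.34 with that scaling. Eif2ak3, which encodes PERK, had 413 and 446, 393 and 413, 540 and 685, and 372 and 486 normalized counts in WT and knockout mice on SD and then on HFD, and was not called on HFD (-0.52, adjusted p = 0.069).

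Among the transcription factors, Ddit3 was lower in knockout than in WT libraries. Ddit3 (ENSMUSG00000025408, chromosome 10, 127290774 to 127296288), encoding CHOP, which promotes cell death under lasting stress, had 2320 and 2768 normalized counts in WT mice on SD, 786 and 1266 in knockout mice on SD, 1387 and 1359 in WT mice on HFD, and 857 and 802 in knockout mice on HFD. Both WT libraries lay above both knockout libraries on each diet, and the WT SD libraries stood above all others. On SD its log2 value differed by -1.34 (standard error 0.21, adjusted p = 0.0017), a 2.54-fold lower level, and the call held with WT HFD as a single sample (adjusted p = 0.0087) and without any 1 library (-1.69 to -1). On HFD it was -0.73 (standard error 0.21, adjusted p = 0.016). The HFD call was lost with WT HFD as a single sample (adjusted p = 0.1), without the first or second WT HFD library (adjusted p = 0.098 and 0.092), without the second knockout HFD library (adjusted p = 0.073), without a filter on low values (adjusted p = 0.058) and with libraries scaled to the same total (-0.34, adjusted p = 0.18). In WT mice Ddit3 fell by 0.88 from SD to HFD (standard error 0.21, adjusted p = 0.012), which was lost with WT HFD as a single sample (adjusted p = 0.11) and without any 1 of the 4 libraries (-1.01 to -0.76, adjusted p from 0.068 to 0.1). Where Ddit3 was high, the immediate-early genes were high as well: 9 of the 11 were called lower in knockout mice on SD and 10 of 11 lower on HFD in WT mice, while on HFD 1 was called higher and 2 lower in knockout mice. Exons of Mars on the opposite strand cover 3.97% of the exon bases of Ddit3 and exons of Gm4189 0.759%, a second annotated gene of the same symbol and strand, not analysed here, covers 6.13%, and whether the counting used the strand is not stated in the sources used here.

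Atf4 (ENSMUSG00000042406, chromosome 15, 80255184 to 80257540), the main effector of eIF2alpha phosphorylation, had 4525 and 4372 normalized counts in WT mice on SD, 4258 and 3897 in knockout mice on SD, 3301 and 3328 in WT mice on HFD, and 4548 and 4945 in knockout mice on HFD. The WT HFD libraries were the lowest and the knockout HFD libraries the highest. The log2 difference between genotypes on HFD was 0.52 (standard error 0.14, adjusted p = 0.012), under the fold limit for a call, and it was 0.90 and called (adjusted p = 0.00091) with libraries scaled to the same total. On SD it was -0.13 (adjusted p = 0.71). HFD against SD in WT mice gave -0.42 (adjusted p = 0.05), also under the fold limit.

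Xbp1 (ENSMUSG00000020484, chromosome 11, 5520659 to 5525893), the target of IRE1, had 4049 and 3240 normalized counts in WT mice on SD, 3033 and 2842 in knockout mice on SD, 2632 and 2898 in WT mice on HFD, and 2125 and 2225 in knockout mice on HFD. On each diet both knockout libraries lay below both WT libraries. No contrast was called: the log2 differences between genotypes were -0.30 on SD (adjusted p = 0.34) and -0.34 on HFD (adjusted p = 0.1), the latter 0.04 with libraries scaled to the same total. Trib3 (ENSMUSG00000032715, chromosome 2, 152337422 to 152344032), a target of CHOP that acts on insulin signalling, had 78 and 82 normalized counts in WT mice on SD, 62 and 47 in knockout mice on SD, 48 and 73 in WT mice on HFD, and 51 and 37 in knockout mice on HFD. These rest on 44 to 77 reads per library. The WT SD libraries were the highest, the other groups overlapped, and no contrast was called (standard error 0.42 for the difference between genotypes). A difference of the size seen in Ddit3 on HFD would not stand out for Trib3 at this standard error.

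Of the chaperones, Dnajb9 was higher in knockout than in WT libraries on HFD. Dnajb9 (ENSMUSG00000014905, chromosome 12, 44205897 to 44210068), the co-chaperone ERdj4 that acts with BiP and is a target of spliced Xbp1, had 1736 in both WT libraries on SD, 1874 and 1950 in knockout mice on SD, 1238 and 1136 in WT mice on HFD, and 2138 and 2183 in knockout mice on HFD. The groups did not overlap, with the WT HFD libraries lowest and the knockout HFD libraries highest. On HFD its log2 value differed by 0.86 (standard error 0.14, adjusted p = 0.00059), a 1.82-fold higher level, and the call held with WT HFD as a single sample (adjusted p = 0.014) and without any 1 library (0.8 to 0.93). On SD the difference was 0.14 (adjusted p = 0.68). HFD against SD in WT mice gave -0.55 (adjusted p = 0.019), under the fold limit.

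Hspa5 (ENSMUSG00000026864, chromosome 2, 34771970 to 34777547), the chaperone BiP that holds the sensors inactive, had 35045 and 39037 normalized counts in WT mice on SD, 27879 and 21667 in knockout mice on SD, 27234 and 27854 in WT mice on HFD, and 34059 and 37087 in knockout mice on HFD. The knockout libraries lay below the WT libraries on SD and above them on HFD. Neither difference was called, at -0.59 on SD (adjusted p = 0.11) and 0.37 on HFD (adjusted p = 0.14), each with a standard error of 0.18. Herpud1 (ENSMUSG00000031770, chromosome 8, 94386438 to 94395377), an ER membrane protein of ER-associated degradation (ERAD), had 1288 and 1420 in WT mice on SD, 981 and 771 in knockout mice on SD, 1028 and 1002 in WT mice on HFD, and 1167 and 1461 in knockout mice on HFD. Its groups stood in the same order, with -0.64 on SD (adjusted p = 0.064) and 0.36 on HFD (adjusted p = 0.13), each with a standard error of 0.18. The SD difference was called without the first knockout SD library (-0.81, adjusted p = 0.042) and with upper-quartile scaling (-0.69, adjusted p = 0.043).

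Hspa5 and Herpud1, the promoters with an ERSE and an ERSE-II shown above, were each other's nearest gene. After each gene's log2 values were centred, the root mean square difference between them over the 8 libraries was 0.058, the smallest among the 12093 genes compared for either of them. Ndrg1 followed for both at 0.066. Hsp90b1 (ENSMUSG00000020048, chromosome 10, 86690209 to 86705509), the chaperone GRP94, carries an ERSE on each strand but varied little. It had 8044 and 8065 normalized counts in WT mice on SD, 6605 and 6315 in knockout mice on SD, 7679 and 7333 in WT mice on HFD, and 6773 and 7524 in knockout mice on HFD. Its highest library was 1.28 times its lowest, against 1.8 times for Hspa5 and 3.52 times for Ddit3. No contrast was called, with -0.32 between genotypes on SD (adjusted p = 0.27) and -0.07 on HFD (adjusted p = 0.73), the latter 0.31 with libraries scaled to the same total. Exons of 1810014B01Rik on the opposite strand cover 10.3% of its exon bases, and on its own strand Gm15344 covers 2.08% and Gm25745 3.3%.

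By the same measure, the nearest gene of Ddit3 was Ier2, an immediate-early gene, at 0.143, followed by Gm17024 and Ifrd1. For Ern1 the nearest were Zfp516 (0.105), Sdcbp and St8sia4, for Dnajb9 Patl1 (0.067), Akt1 and Zbtb21, and for Atf4 Kdm3a (0.044), Phc2 and Nup98. Xbp1 lay nearest to S100a13 (0.090), Chrac1 and Tmem94, Atf6 to Vps37a (0.046), Kif2a and Mkln1, and Trib3 to Wdr4 (0.126), Ppdpf and AI837181. Among the 10 genes themselves, the next pair after Hspa5 and Herpud1 was Atf4 and Dnajb9 at 0.172.

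Counted together, 3 of the 10 genes were called between genotypes on HFD, Ern1 and Dnajb9 higher and Ddit3 lower, where 32.2% of all tested genes were called (17.1% higher and 15.1% lower). With WT HFD as a single sample 2 of 10 were called, against 18.3%. Both shares lie near the background. The libraries of the genotypes did not overlap for 7 of the 10, 5 higher and 2 lower in knockout mice, against 69.6% of all genes (36.5% higher and 33.0% lower). Scaling to equal totals moved the median log2 fold change of all genes on HFD from 0.09 to 0.47. It then gave 5 of 10 called, all higher and including Hspa5, Atf4 and Herpud1, against 31.8% of all genes (24.6% higher and 7.27% lower). Relative to that median the values were nearly the same under both scalings, 1.30 and 1.31 for Ern1, 0.77 and 0.78 for Dnajb9, and -0.82 and -0.81 for Ddit3. On SD 1 of 10 was called, Ddit3, against 4.71% of all genes (1.5% lower), and with WT HFD as a single sample it was again Ddit3, against 3.45%. On SD the libraries of the genotypes stood apart without overlap for 10 of 10 genes, 7 lower and 3 higher in knockout mice, while 45.0% of all genes stood apart in this way (22.2% lower and 22.8% higher). The shares over all genes, here and for the diets below, were not matched for expression level. The median log2 difference of the 10 was -0.31 on SD and 0.16 on HFD, beside -0.01 and 0.09 over all genes.

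**Figure D3:**
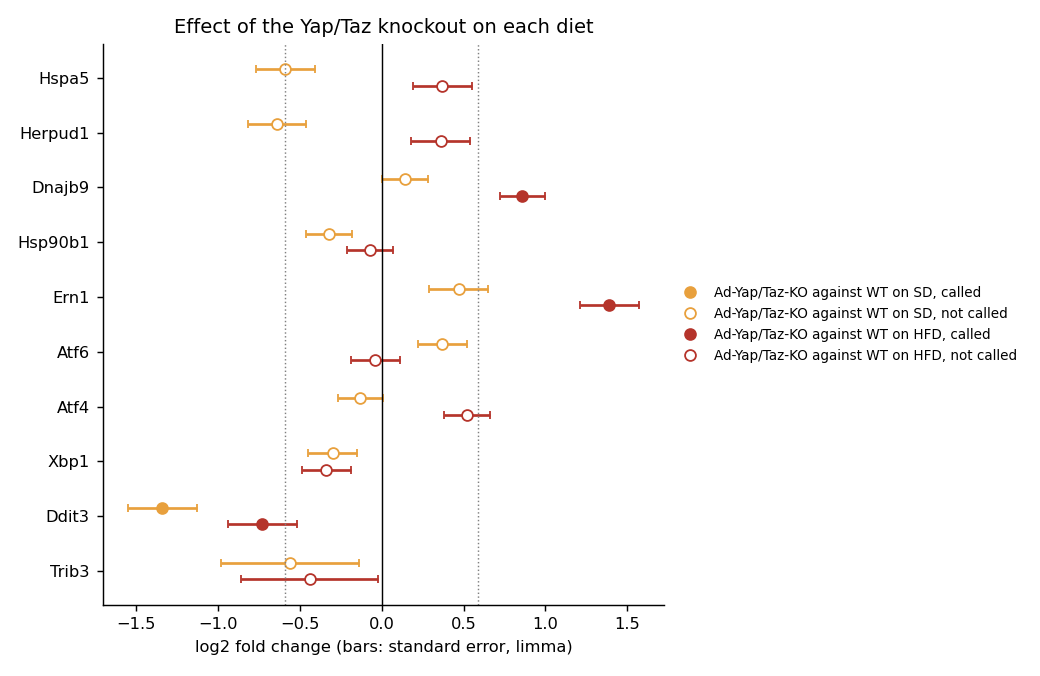
Log2 fold change of Ad-Yap/Taz-KO against WT (x axis) for each of the 10 genes (y axis) on SD and on HFD, with bars for the standard error of limma, filled points for called genes, and dotted lines at the fold limit of 0.59 in either direction. Ern1 and Dnajb9 passed the limits upward on HFD, and Ddit3 passed them downward on both diets.

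In WT mice, 2 of the 10 fell from SD to HFD, Ddit3 and Ern1, against 18.0% of all genes called (9.22% lower). With WT HFD as a single sample limma called 0 of 10, against 2.87% of all genes, while 3 of the 10 had an unadjusted p under 0.05. The count was also 0 without any 1 of the 4 libraries. The WT libraries of the diets stood apart for 10 of 10 genes. Of these, 9 were lower on HFD, as 33.6% of all genes were without overlap, and 1, Atf6, was higher, as 31.4% were. Scaling to the same total moved the median of all genes from -0.08 to -0.48 and gave 7 of 10 called, all lower, against 21.5% of all genes (19.0% lower). The median log2 difference of the 10 was -0.42.

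In knockout mice limma called 0 of the 10 between diets, against 1.07% of all genes, and 3 of the 10 had an unadjusted p under 0.05. These were Herpud1 (0.59, standard error 0.18, adjusted p = 0.13), Hspa5 (0.53, standard error 0.18, adjusted p = 0.19) and Xbp1 (-0.43, standard error 0.15, adjusted p = 0.2). Herpud1 was called without the first knockout SD library (0.76, adjusted p = 0.048). The libraries of the diets did not overlap for 7 of the 10, 6 higher and 1 lower on HFD, against 42.0% of all genes (22.7% higher and 19.3% lower).

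The effect of the genotype differed between the diets for 5 of the 10 genes in the interaction term, against 17.4% of all genes (8.69% higher), and in all 5 it was more positive on HFD than on SD. The difference was 1.00 for Herpud1 (standard error 0.25, adjusted p = 0.019), 0.96 for Hspa5 (standard error 0.26, adjusted p = 0.027), 0.92 for Ern1 (standard error 0.25, adjusted p = 0.026), 0.73 for Dnajb9 (standard error 0.20, adjusted p = 0.028) and 0.64 for Atf4 (standard error 0.20, adjusted p = 0.041). For Hspa5 and Herpud1 the genotype difference was negative on SD and positive on HFD, whereas for Ern1 and Dnajb9 it was positive on both diets. The endothelial markers had the signs of Hspa5 and Herpud1, with medians of -0.70 on SD (0 of 7 called) and 0.64 on HFD (2 of 7 called higher). In the interaction 6 of 7 endothelial markers, 6 of 7 markers of fibroblasts and progenitors, 9 of 10 macrophage markers and 6 of 11 immediate-early genes were called higher and 8 of 10 adipocyte markers lower, and the part of these in the values of the 10 genes was not tested. For the other 5 genes the interaction was 0.62 for Ddit3 (adjusted p = 0.16), 0.25 for Hsp90b1, 0.12 for Trib3, -0.04 for Xbp1 and -0.41 for Atf6. With libraries scaled to the same total it was 0.39 for Xbp1 and 0.02 for Atf6, the median of all genes then being 0.52 in place of 0.10. With WT HFD as a single sample limma called 0 of the 10, against 2.75% of all genes, with adjusted p from 0.092 to 0.16 for the 5 genes and 5 of the 10 under an unadjusted p of 0.05. None of the 5 was called without the first or second WT SD library, the second knockout SD library, or the first or second WT HFD library, nor without a filter on low values (adjusted p from 0.058 to 0.08). Without the second knockout HFD library Hspa5 alone was called among them. Without the second knockout SD library Ddit3 was called (0.96, adjusted p = 0.037).

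To place the 10 genes in their pathway, 91 further genes were listed by role, of which 90 were tested. Between genotypes on HFD, 11 were called higher and 24 lower in knockout mice, with a median log2 difference of -0.27, where 17.1% and 15.1% of all genes were called. With libraries scaled to the same total the medians turned from -0.35 to 0.04 for sensors and regulators and from -0.27 to 0.12 for the translocon list. That of ATF4 targets turned from -0.19 to 0.20. Relative to all genes these medians moved by little, from -0.44 to -0.43, -0.36 to -0.35 and -0.28 to -0.27. With WT HFD as a single sample the counts were 10 and 11, against 18.3% of all genes in either direction, and with libraries scaled to the same total 15 and 5, where 24.6% and 7.27% of all genes were called. The 35 calls became 22 and 21 without the first or second WT HFD library, and 41 and 24 without the first or second knockout HFD library. On SD 4 were called higher and 4 lower, where 3.21% and 1.5% of all genes were called, and 1 to 6 were called when 1 library was left out, 1 without the second WT SD library and 5 without the first. In WT mice 17 were higher and 6 lower on HFD, against 8.74% and 9.22% of all genes. These 23 calls became 4 with WT HFD as a single sample (Sel1l and Vldlr higher, Atf3 and Ppp1r15a lower), 4 and 10 without the first or second WT SD library, and 5 and 4 without the first or second WT HFD library. With libraries scaled to the same total 4 were higher and 13 lower, where 21.5% of all genes were called (19.0% lower), and the medians of 5 of the 6 lists turned, from 0.11 to -0.30 for sensors and regulators, from 0.20 to -0.21 for chaperones, from 0.37 to -0.04 for the translocon list, from 0.29 to -0.13 for the eIF2alpha list and from 0.28 to -0.14 for ATF4 targets. Relative to all genes these medians moved by little, from 0.19 to 0.18, 0.28 to 0.27, 0.45 to 0.44, 0.36 to 0.35 and 0.35 to 0.34. In knockout mice limma called 0 between diets, with 7 under an unadjusted p of 0.05. In the interaction 6 were called higher and 11 lower, where 17.4% of all genes were called (8.69% higher). The median was -0.39, against 0.63 for the 10 genes and 0.10 for all genes. Relative to all genes the medians of the 6 lists lay between -0.85 and -0.30, and between -0.83 and -0.28 with libraries scaled to the same total.

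**Figure D4:**
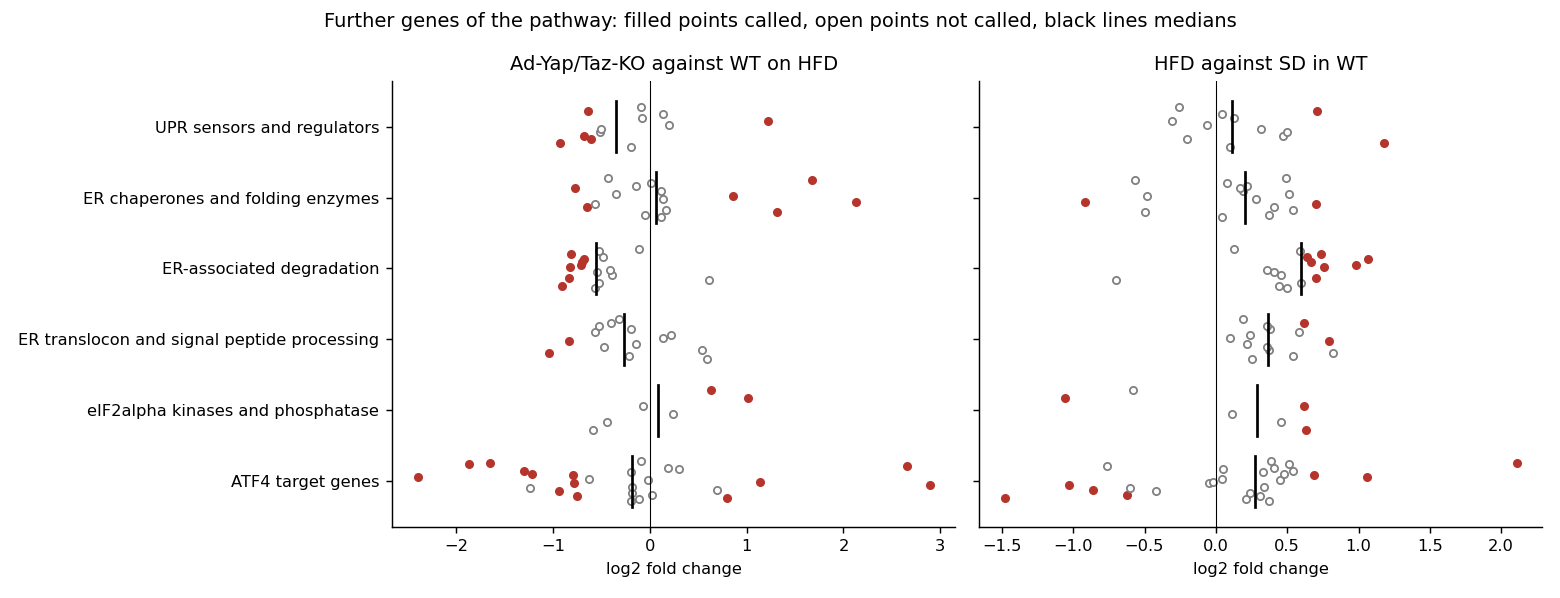
Log2 fold change (x axis) of each tested gene of the 6 pathway lists (y axis) for knockout against WT mice on HFD, left, and for HFD against SD in WT mice, right. Filled points are called genes, open points are not called, and a black line marks the median of each list, which for ER-associated degradation was -0.56 on the left and 0.59 on the right.

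The ERAD genes, whose products carry misfolded proteins out of the ER to the proteasome, were called in 1 direction, lower in knockout mice on HFD. Of 16 tested, 7 fell and 0 rose between genotypes on HFD, with a median of -0.56, where 15.1% of all genes were called lower. Derl1, a channel component, fell by 0.91 (adjusted p = 0.0023), Edem1, a lectin that delivers glycoproteins, by 0.84 (adjusted p = 0.0017), and Man1b1, a mannosidase, by 0.82 (adjusted p = 0.0028). Edem1 had 3856 and 4145 normalized counts in WT mice on HFD and 2460 and 2034 in knockout mice on HFD, against 2241 and 2707 in WT and 2414 and 2136 in knockout mice on SD. The count was 5 with WT HFD as a single sample, 4 without the first WT HFD library, 3 without the second knockout HFD library and 12 without the first, where in the same order 1531, 1710, 1832 and 3148 of the 18800 genes were called lower. It was 0 with libraries scaled to the same total, where the 3 genes stood at -0.52, -0.45 and -0.43, but the median of the list lay below that of all genes by a like amount under both scalings (-0.65 and -0.64). In WT mice 7 of the 16 rose from SD to HFD and 0 fell, with a median of 0.59, where 8.74% of all genes were called higher. With libraries scaled to the same total 1 was called and the median was 0.18, or 0.66 above that of all genes, against 0.67 otherwise. The count was also 1 with WT HFD as a single sample, without the first WT SD library or without the second WT HFD library, 2 without the first WT HFD library and 3 without the second WT SD library. Sel1l, the scaffold of the ERAD ligase, was called in each of these fits, at 1.07 (standard error 0.15, adjusted p = 0.00085 with all libraries). It had 2404 and 2302 normalized counts in WT mice on SD and 5073 and 4805 on HFD, against 2819 and 2988 and then 3416 and 2779 in knockout mice. Herpud1, which acts in the same process, had both of its WT HFD libraries below both WT SD libraries and was not called (-0.41, adjusted p = 0.12). The adipocyte markers moved with the ERAD genes: 9 of 10 were called lower in knockout mice on HFD, with a median of -1.43, and 2 of 10 higher on HFD in WT mice, with a median of 0.70. Their sum was 280532 in the first knockout HFD library and 147085 in the second. The part of this in the ERAD counts was not tested.

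The ER chaperones and folding enzymes moved in both directions. Of 16, 4 rose and 2 fell in knockout mice on HFD, with a median of 0.07, and 4 and 1 were called with WT HFD as a single sample, Ero1lb, Creld2 and Pdia4 among them. Over all genes 17.1% were called higher and 15.1% lower, and 18.3% in either direction with that average. Ero1lb, an oxidase that forms disulfide bonds, had 55 and 63 normalized counts in WT mice on HFD, against 295 and 231 in knockout mice, and rose by 2.13 (standard error 0.29, adjusted p = 0.00013). Creld2, an ER protein induced by stress, rose by 1.31 (167 and 137 against 432 and 330 normalized counts, adjusted p = 0.0016). Pdia4, a disulfide isomerase, fell by 0.77 (adjusted p = 0.0013), a call lost with libraries scaled to the same total (-0.38, adjusted p = 0.067). Among the 12 sensors and regulators 1 rose and 4 fell, against the same shares of all genes. The 4 lower calls were lost with WT HFD as a single sample, where Nfya alone was called, against 18.3% of all genes. The 5 calls became 2 and 1 without the first or second WT HFD library. Nfya, a subunit of the factor that binds the CCAAT box, rose by 1.22 (370 and 307 against 731 and 843 normalized counts, adjusted p = 0.00094). Of the 14 tested genes for the translocon and signal peptide processing, 0 rose and 2 fell, beside 17.1% and 15.1% of all genes, and both calls were lost with WT HFD as a single sample.

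Among the 6 genes listed for eIF2alpha phosphorylation, upstream of Atf4, 2 rose in knockout mice on HFD, both phosphatase subunits, where 17.1% of all genes were called higher, and 1 of these calls held with WT HFD as a single sample. Ppp1r15a (GADD34), the stress-induced subunit that dephosphorylates eIF2alpha, had 9247 and 8603 normalized counts in WT mice on SD, 7071 and 5769 in knockout mice on SD, 4428 and 4136 in WT mice on HFD, and 7890 and 9385 in knockout mice on HFD. It rose by 1.01 in knockout mice on HFD (standard error 0.16, adjusted p = 0.00045) and fell by 1.06 from SD to HFD in WT mice (standard error 0.16, adjusted p = 0.0013). The interaction was 1.49 (standard error 0.23, adjusted p = 0.0032). With WT HFD as a single sample these 3 calls held, at adjusted p of 0.013, 0.038 and 0.035. Its constitutive counterpart Ppp1r15b rose by 0.63 on HFD in knockout mice (adjusted p = 0.0093), which was lost with WT HFD as a single sample (adjusted p = 0.08) and without the first or second WT HFD library or the first knockout HFD library (0.57 to 0.69). The kinase Eif2ak1 (HRI) had 542 and 530 normalized counts in WT mice on SD, 581 and 722 in knockout mice on SD, 813 and 851 in WT mice on HFD, and 644 and 475 in knockout mice on HFD. It rose by 0.63 from SD to HFD in WT mice (adjusted p = 0.039) and was called lower in the interaction (-0.86, adjusted p = 0.049). Eif2s1, which encodes eIF2alpha itself, rose by 0.62 from SD to HFD in WT mice (adjusted p = 0.031). These calls were lost with WT HFD as a single sample (adjusted p = 0.2 and 0.16 for Eif2ak1 and 0.18 for Eif2s1).

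ATF4 target genes moved in both directions. Of 26 tested, 4 rose and 9 fell in knockout mice on HFD, with a median of -0.19 (0.20 with libraries scaled to the same total, where 5 were called in each direction and the medians relative to all genes were -0.28 and -0.27), where 17.1% and 15.1% of all genes were called, and on SD 3 rose and 3 fell, against 3.21% and 1.5%. On HFD 4 and 5 were called with WT HFD as a single sample, the 5 lower being Atf5, Phgdh, Sesn2, Stc2 and Vldlr, against 18.3% of all genes in either direction. On SD 3 and 2 were then called, against 3.45%. Leaving out 1 library gave 8 to 15 calls on HFD, with 8 without the second knockout HFD library, and 1 to 5 on SD, with 1 without the second WT SD library. Gdf15, a secreted stress hormone, had 362 and 323 normalized counts in WT mice on SD, 1181 and 665 in knockout mice on SD, 163 and 172 in WT mice on HFD, and 1426 and 1088 in knockout mice on HFD. It rose by 2.89 on HFD in knockout mice (standard error 0.25, adjusted p = 4.1e-06). Slc7a11, the cystine transporter, had 148 and 113, 609 and 509, 87 and 66, and 483 and 489 normalized counts in the same order of groups, and rose in knockout mice by 2.66 on HFD (standard error 0.25, adjusted p = 7.6e-06) and by 2.10 on SD (standard error 0.25, adjusted p = 0.00029). Both HFD calls held with WT HFD as a single sample (adjusted p = 0.0003 and 0.00027). In the other direction, Phgdh, the first enzyme of serine synthesis, had 2990 and 3128 normalized counts in WT mice on HFD, against 751 and 445 in knockout mice, and fell by 2.40 (standard error 0.22, adjusted p = 4.8e-06). Vldlr, a lipoprotein receptor, fell by 1.65 on HFD in knockout mice (standard error 0.22, adjusted p = 0.00012), and Stc2, a secreted glycoprotein, by 1.87 (standard error 0.23, adjusted p = 6.2e-05). In the same contrast 9 of 10 macrophage markers were called higher and 9 of 10 adipocyte markers lower. Their part in the values of the ATF4 targets was not tested. Atf3, a transcription factor of the same arm and also an early stress gene, had 6664 and 7843 normalized counts in WT mice on SD, 4124 and 4609 in knockout mice on SD, 2650 and 2546 in WT mice on HFD, and 4412 and 4665 in knockout mice on HFD. It rose in knockout mice on HFD by 0.80 (standard error 0.15, adjusted p = 0.0012) and fell in knockout mice on SD by 0.73 (standard error 0.15, adjusted p = 0.012). The interaction was 1.53 (standard error 0.21, adjusted p = 0.0024), and with WT HFD as a single sample it was called as well (adjusted p = 0.032). The SD call was lost without the second WT SD library (adjusted p = 0.17) and without the first knockout SD library (adjusted p = 0.059).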

How the data were processed

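The members and all gene lists were chosen with earlier results of these data known. Per the labels and the study's methods, ribosomal RNA was depleted and strand-marking libraries were sequenced single-end, and the authors used Reaper for trimming, STAR 2.5.2b for alignment (GRCm38) and featureCounts 1.5.1 for exon reads, without reads shared by genes or places. The submitters' processing notes also name DESeq2 1.14.1, which was not run here. The deposited values are a score: the authors' gene counts after division by library size factors, rounded to integers. Rounding kept whole reads from being recovered, so no count model was fitted. The method behind the size factors and the use of strand are not given in the sources used here.

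Testing covered the 18800 of 30387 genes whose mean reached 5, with limma 3.58.1 in R 4.3.3 (lmFit, contrasts.fit, eBayes with trend) on log2(value + 1), with 4 residual degrees of freedom and 8.59 from the prior. The pseudocount understates fold changes of low genes. The script was tested on simulated data. Depth was 14.0 to 22.3 M reads on genes, and a value of 0 allows up to 3 counts (counting error only).

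Groups and replicate numbers come from the sample titles. The named genes are the 10 members, Yap1 and Wwtr1, up to 3 called genes in each direction per pathway list and contrast with a mean of at least 50, the eIF2alpha kinases and phosphatase subunits, and for each member the 3 genes (mean 50 or more) with the smallest root mean square difference of centred log2 values. Of the genes this rule names, the text gives a part, chosen after their values were seen. Alternatives were a pseudocount of 8, no filter or a mean of at least 50, 2 other scalings, a replicate block, a fit of only the groups compared, no fold limit, WT HFD as the mean of its libraries, and leaving out each library. They were extended to the pathway genes after seeing the data. Python 3.11.15 with pandas 2.3.3, numpy 2.4.6 and matplotlib 3.10.9 made tables and figures. Exon lengths and overlaps are from the GENCODE vM21 annotation.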

Additional observations from a re-analysis of the deposited data

Results flagged for a closer look

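For 5 of the 10 genes the effect of the Yap/Taz knockout differed between HFD and SD in the interaction term of limma: Herpud1 by 1.00 (adjusted p = 0.019), Hspa5 by 0.96 (adjusted p = 0.027), Ern1 by 0.92 (adjusted p = 0.026), Dnajb9 by 0.73 (adjusted p = 0.028) and Atf4 by 0.64 (adjusted p = 0.041), all on the log2 scale, with 17.4% of all tested genes called. None of the 5 passed with WT HFD as a single sample.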

How the results depend on the processing

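Ern1 and Dnajb9 on HFD and Ddit3 on SD kept their calls under every alternative run. With libraries scaled to the same total, 5 of the 10 genes were called on HFD (5 higher, 0 lower, in place of 2 and 1) and 7 from SD to HFD in WT mice (0 higher, 7 lower), and the sign turned on HFD for Hsp90b1 (0.31), Atf6 (0.34) and Xbp1 (0.04), from SD to HFD in WT mice for Atf6 (-0.03) and in the interaction for Atf6 (0.02), Xbp1 (0.39) and Wwtr1 (0.11). Over all genes the split of higher and lower calls became 4617 and 1367 on HFD (3213 and 2840 under the authors' scaling), 470 and 3567 from SD to HFD in WT mice (1643 and 1734), 60 and 173 in knockout mice (72 and 130) and 2610 and 619 in the interaction (1633 and 1641). With upper-quartile scaling 2 genes were called on SD. Without a filter 0 of the 10 were called from SD to HFD in WT mice and in the interaction, and over all genes 438 on SD (886 with the filter), 1701 and 3 for the diet in WT and knockout mice (3377 and 202) and 721 in the interaction (3274). With no fold limit 4 were called from SD to HFD in WT mice. With WT HFD as a single sample the counts over all genes were 3445 on HFD (6053 otherwise), 539 and 28 for the diet in WT and knockout mice and 517 in the interaction, and 0 of the 10 genes were called for the diet in WT mice and in the interaction. With only the groups compared, 461 genes were called on SD and 0 for the diet in knockout mice, where a pseudocount of 8 gave 330. The cause of these changes was not tested.

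Leaving out 1 library gave 2 to 3 of the 10 genes on HFD, 1 to 2 on SD, 0 to 0 and 0 to 1 for the diet in WT and knockout mice and 0 to 5 in the interaction, and over all genes 3629 to 5837, 381 to 778, 628 to 1400, 14 to 961 and 530 to 4249. The sign turned in part of these fits on HFD for Hsp90b1 (-0.15 to 0) and Atf6 (-0.12 to 0.03), for the diet in knockout mice for Ddit3 (-0.61 to 0.08), Atf6 (-0.09 to 0.04), Wwtr1 (-0.09 to 0.31) and Yap1 (-0.12 to 0.30) and in the interaction for Xbp1 (-0.2 to 0.12) and Trib3 (-0.18 to 0.42).

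The replicate numbers did not pair the libraries: replicate differences correlated between groups at -0.3 to 0.108. With the replicate number as a block, 2 of the 10 genes were called in the interaction, Herpud1 and Ern1, and 112 of all genes for the diet in knockout mice, and the other member counts stayed as they were. Trib3 had the fewest reads of the 10 genes, with 44 to 77 per library.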
